A study of Mus musculus with 4 samples.

Results

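Histone modifiers and chromatin remodellers were followed as RNAs, through the contacts their transcripts made with themselves and with other RNAs in mouse spermatogonial stem cells. The members were the RNA names of the table that belong to the Kmt, Setd, Kdm, Hdac, Brd, Chd, Smarc or Arid name families. The rule uses names and no measured value, but it was set with earlier results of these data known. The rule found 81 of 13318 RNAs: 6 Kmt, 8 Setd, 16 Kdm, 10 Hdac, 7 Brd, 10 Chd, 15 Smarc and 9 Arid names, of which Smarca5-ps and Smarce1-ps1 are pseudogenes by name. The study compared wild-type mouse spermatogonial stem cells (2 control libraries) with cells whose genotype field reads "Differentiation" (2 differentiation libraries). The inducer, the duration of differentiation, the mouse strain, the age of the animals and the origin of each culture are not given in the sources used here. All libraries were made by RIC-seq, in which RNA is fixed in place with formaldehyde, cut with a nuclease, and ligated where ends lie close together, so that a chimeric read records a contact. Nothing in the labels says that the libraries of a group came from separate cultures, so a p-value here refers to the spread among 4 libraries, and that spread may be technical.

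The proteins encoded by these RNAs act on the nucleosome, the unit of DNA wrapped around histones. Most, but not all, Kmt and Setd proteins write methyl marks on histone lysines, and Kdm enzymes erase them. Hdac enzymes remove acetyl groups, and Brd proteins read acetylated lysines through a bromodomain. Chd, Smarc and several Arid proteins belong to ATP-driven machines that slide or evict nucleosomes. In the male germ line such factors are known for the change of chromatin state between stem cell, differentiating and meiotic stages. A contact of the RNA says nothing about the protein: the values below describe where these transcripts lie relative to themselves and to other RNAs, together with how much of each transcript there is. RNA amount and closeness cannot be told apart in a contact count, nor can fewer cells of a type and less RNA per cell.

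Library totals were 1209031 and 1400011 counts in the controls against 793129 and 1155923 in the differentiation libraries, over 56636 listed pairs, each with at least 1 count in every library. Marker lists moved with the groups. Of the spermatogonial stem cell list, 3 of 6 tested genes (Gfra1, Shisa6, Foxo1) fell, and its summed contact level was 941 and 1105 CPM (counts scaled to a common library size) with control cells against 348 and 335 CPM after differentiation. Id4, Lhx1, Bcl6b, Nanos2, Eomes, Pax7, T and Lin28a of that list had no listed pair. Nanos3 and Sall4 were listed with too few counts to test. Of the meiotic prophase list, 7 of 8 tested genes rose, with sums of 266 and 238 against 735 and 916 CPM, and of the germ cell list 3 of 8 rose, with sums of 122 and 104 against 303 and 381 CPM. Of the Sertoli cell list, 5 of 9 tested genes fell, with sums of 1036 and 1149 against 634 and 587 CPM. Amh and Rhox5 of that list had no listed pair. Listing itself requires a count in every library, so presence in all 4 libraries is no separate evidence of that cell type. Of the fibroblast or feeder list, 4 of 12 fell and 1 rose, with sums of 2697 and 2481 against 2286 and 2400 CPM. Those sums include Tnc, the gene that rose, at 321 and 271 against 670 and 694 CPM. The log2 changes of the list were below 0 in 11 genes and above 0 in 1. None of 5 Leydig or peritubular genes (210.03 and 221 against 214 and 212 CPM), 3 genes of differentiating spermatogonia (47.4 and 50.4 against 75.01 and 61.0 CPM) or 1 immune gene passed, with 1 Leydig gene on either side and 1 spermatogonial gene higher at an unadjusted p under 0.05 in the edgeR fit. The part of these shifts in the member results was not tested.

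The member RNAs took part in 755 listed pairs, 42 that join a member to itself (within-RNA pairs) and 713 that join it to another RNA (between-RNA pairs). These pairs held 1.28% and 1.33% of all counts in the controls against 1.14% and 1.24% in the differentiation libraries. The groups did not overlap, but the exact two-sided permutation p was 0.333, the smallest that 2 libraries against 2 can give. A within-RNA pair was listed for 42 of the 81 members (51.9%), against 36.3% of all RNAs. The median member had 6 different partner RNAs and 308 counts over the 4 libraries, against 3 partners and 83 counts for the median RNA of the table. Counts ranged from 5 for Smarcal1, an annealing helicase, to 5829 for Arid1b, a DNA-binding subunit of the BAF remodelling complex. Per kilobase of gene span, introns included, Smarca5-ps had 73.3 counts, Kmt2d 70.4, Brd2 59.5 and Hdac7 57.5, while Chd5 had 0.213 and Hdac9 0.313. Gene span is not the length of the RNA, so these values rank the members only roughly. Smarca5-ps is a pseudogene and can share reads with its parent gene. Longer member genes had more counts and a larger share of them within the RNA itself: across the 81 members the log2 of gene span correlated with the log2 of the count (Pearson 0.434, Spearman 0.451) and with the within-RNA share (Pearson 0.441, Spearman 0.455). All members share the same 4 libraries and genes are not independent replicates, so these correlations are descriptions only.

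**Figure D1:**
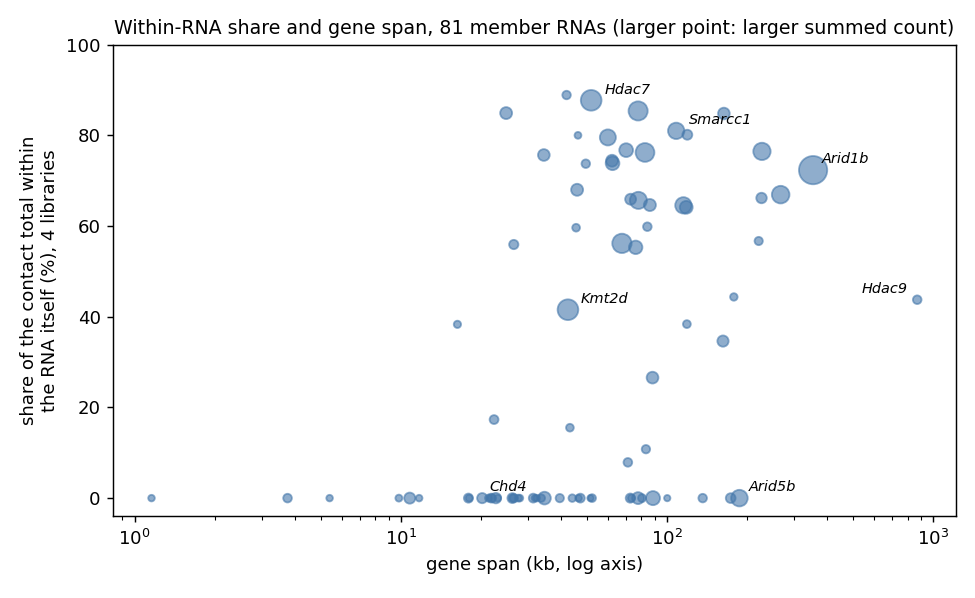
The share of each member's counts that joined the RNA to itself (vertical axis, percent over the 4 libraries) is plotted against gene span (horizontal log axis, kilobases), with 1 point for each of the 81 member RNAs and larger points for larger summed counts. Hdac7 and Smarcc1 sit above 80%, Kmt2d at 41.6%, and 39 members, among them Arid5b and Chd4, have no listed within-RNA pair.

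The contact total of each RNA, the sum of all listed pairs that hold it, was compared between the groups first. Of 81 members, 79 had enough counts to test; Chd5 and Smarcal1, with 11 and 5 counts, did not. The totals of 5 of 79 members, among them Kdm7a, Arid5b, Arid1b and Chd6, were lower in the differentiation libraries, and 0 were higher (edgeR quasi-likelihood F test, Benjamini-Hochberg adjusted p under 0.05 over 10993 RNAs). Over all RNAs 6.75% were called lower and 5.44% higher by the same rule, so the number of members called lower is near the background. At an unadjusted p under 0.05 in the edgeR fit, 16 of 79 members were lower and 4 higher, against 1544 and 1426 of all 10993 RNAs. DESeq2 called 4 members lower and 0 higher. Of the fitted changes, 53 were below 0 and 26 above 0, with a median log2 change of −0.21 against −0.00 for all RNAs, where the median standard error of a member's change was 0.236. When libraries were scaled by their totals alone, the median of all RNAs moved to 0.16 and that of the members to −0.05. A change of scaling moves the fitted changes of all RNAs by nearly the same amount. The gap between these medians is therefore nearly fixed, and the other scaling cannot test it. In 36 members both differentiation libraries lay below both controls and in 12 they lay above, against 29.1% and 26.1% of all tested RNAs. By family the median log2 change was −0.12 for Kmt, −0.12 for Setd, −0.18 for Kdm, −0.35 for Hdac, −0.43 for Brd, −0.31 for Chd, 0.11 for Smarc and −0.55 for Arid.

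**Figure D2:**
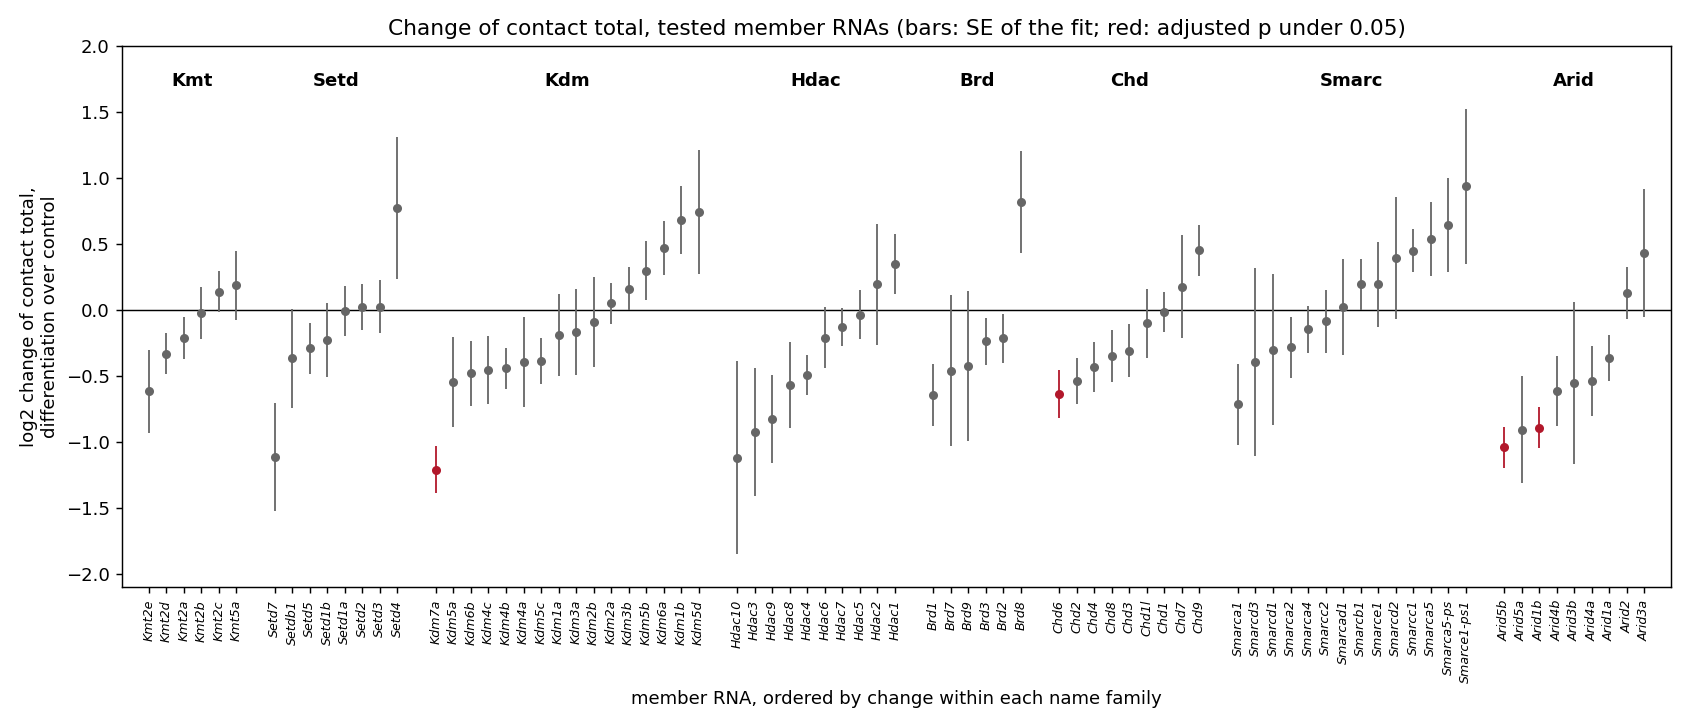
Each point is the fitted log2 change of the contact total, differentiation over control, of a tested member RNA, ordered within its name family, with a bar of 1 standard error on either side. The 4 points drawn in red for an adjusted p under 0.05 (Kdm7a, Chd6, Arid5b, Arid1b) are below 0, and the Smarc family is the one family whose median, 0.11, lies above 0.

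None of 6 Kmt and 8 Setd RNAs passed the test in either direction. At an unadjusted p under 0.05 in the edgeR fit, 1 of them, Setd7, was lower, and DESeq2 called none of those named here. Kmt2d, which encodes a lysine methyltransferase of enhancers, had a contact total of 469 and 493 CPM in the controls against 348 and 416 CPM in the differentiation libraries. Both differentiation libraries lay below both controls, but the log2 change of −0.33 (SE 0.15) did not pass (edgeR adjusted p = 0.196). Its paralogue Kmt2c had 271 and 289 CPM against 288 and 329 CPM, groups that overlap (0.14, SE 0.16, edgeR adjusted p = 0.618). Setd5 had 164 and 182 CPM in the controls against 118 and 164 CPM in the differentiation libraries, with a log2 change of −0.29 (SE 0.19, edgeR adjusted p = 0.368). Setd2, the methyltransferase that travels with elongating RNA polymerase, was nearly level at 116 and 123 CPM against 121 and 123 CPM (0.02, SE 0.17, edgeR adjusted p = 0.955). Log2 changes ranged from −0.62 (Kmt2e) to 0.19 (Kmt5a) in the Kmt family and from −1.11 (Setd7) to 0.77 (Setd4) in the Setd family. Setd7 rested on few counts, with 31.2 and 32.2 CPM against 22.02 and 8.64 CPM, so its SE of 0.41 was more than that of Setd2, and its adjusted p in the edgeR fit was 0.103.

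Among the methyl erasers, 1 of 16 Kdm RNAs passed. Kdm7a, which encodes a demethylase of repressive histone methylation, lies at 6:39136620-39206773 of GRCm38.p6. Its contact total was 226 and 234 CPM in the controls against 110.1 and 89.6 CPM in the differentiation libraries. Both differentiation libraries were below both controls, and the total fell by 1.21 on the log2 scale (SE 0.18, edgeR adjusted p = 0.00128), which is 2.31-fold. Over 14 alternative settings the adjusted p of Kdm7a exceeded the threshold once, without control 2 (0.0690). The contact of Kdm7a with itself accounted for 72.9% of the 130.1 CPM lost, near its share of Kdm7a counts in control 1 (73.6%) and control 2 (78.3%). As a single pair, the Kdm7a within-RNA contact had 287 and 364 counts in the controls against 117 and 119 in the differentiation libraries, a log2 change of −0.85 (SE 0.24) that just missed the threshold over all pairs (edgeR adjusted p = 0.0502). Kdm4b, another demethylase, had 435 and 401 CPM against 284 and 331 CPM and did not pass (−0.44, SE 0.16, edgeR adjusted p = 0.0913). Without differentiation replicate 2 the log2 change of Kdm4b was −0.56. Over between-RNA pairs alone Kdm4b passed (−0.75, edgeR adjusted p = 0.0260), as did Kdm5c (−0.97, edgeR adjusted p = 0.0128) and Kdm7a (−1.24, edgeR adjusted p = 0.00663). The total of Kdm5c over all its pairs did not pass (−0.39, SE 0.18, edgeR adjusted p = 0.180). Kdm2a, which binds unmethylated CpG islands, had 339.6 and 355 CPM against 331 and 387 CPM (0.05, SE 0.15, edgeR adjusted p = 0.881). Across the family 10 changes were below 0 and 6 above, up to 0.74 for Kdm5d. On the upper side Kdm1b had 28.9 and 29.7 CPM against 51.4 and 43.2 CPM (0.68, SE 0.26, edgeR adjusted p = 0.115), and Kdm6a had 56.7 and 58.4 CPM against 72.6 and 86.4 CPM (0.47, SE 0.20, edgeR adjusted p = 0.162). In 5 of the 16 Kdm RNAs both differentiation libraries lay above both controls, and in 7 they lay below, against 26.1% and 29.1% of all tested RNAs.

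None of the 10 Hdac RNAs passed; at an unadjusted p under 0.05, 2 were lower (Hdac4, Hdac9) and 0 higher, in the edgeR fit. Hdac4, a class II deacetylase that shuttles between nucleus and cytoplasm, had 350.6 and 355 CPM in the controls against 260.1 and 243 CPM in the differentiation libraries. The groups did not overlap, and its log2 change of −0.49 (SE 0.15) missed the threshold (edgeR adjusted p = 0.0571). Without differentiation replicate 1 the adjusted p of Hdac4 was 0.0256. Hdac7, also of class II, had 459.98 and 455 CPM against 428 and 409 CPM (−0.13, SE 0.15, edgeR adjusted p = 0.618). Of its counts 87.7% joined Hdac7 RNA to itself. Changes of the family ranged from −1.12 for Hdac10, on 30 counts, to 0.35 for Hdac1, a class I deacetylase with 42.2 and 51.9 CPM against 55.4 and 64.2 CPM. Both of these missed the threshold, with adjusted p of 0.360 and 0.357 in the edgeR fit.

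Brd3, a BET protein that reads acetylated histones, had 117 and 132 CPM against 107 and 105 CPM (−0.24, SE 0.18, edgeR adjusted p = 0.437). Brd2, of the same type, had 97.2 and 104 CPM against 84.0 and 89.1 CPM (−0.21, SE 0.18, edgeR adjusted p = 0.501). Brd1, a scaffold of an acetyltransferase complex, had 53.2 and 54.9 CPM against 33.4 and 35.6 CPM and did not pass (−0.64, SE 0.24, edgeR adjusted p = 0.103). On the upper side lay Brd8, a subunit of an acetyltransferase complex, at 9.26 and 17.6 CPM against 26.1 and 22.1 CPM (0.82, SE 0.39, edgeR adjusted p = 0.1999).

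Of 9 tested Chd RNAs, 1 passed. Chd6, a chromodomain remodeller, lies at 2:160946978-161109086. Its total was 120.3 and 115 CPM in the controls against 72.6 and 78.3 CPM in the differentiation libraries, and it fell by 0.64 on the log2 scale (SE 0.18, edgeR adjusted p = 0.0441). The groups did not overlap, but the call was lost in 8 of 14 alternatives, among them DESeq2 (0.118), leaving out control 1 (0.256), control 2 (0.276) or differentiation 1 (0.0631), and leaving out Neat1 and Malat1 pairs (0.0785). Chd2, a remodeller of the same family, had 263 and 334 CPM against 191 and 219 CPM and missed the threshold (−0.54, SE 0.17, edgeR adjusted p = 0.0670). Without differentiation replicate 2 the adjusted p of Chd2 was 0.00987. Chd1, known for binding the methyl mark of active promoters, did not move beyond its error, with 405 and 362 CPM against 403 and 357 CPM (−0.02, SE 0.15, edgeR adjusted p = 0.965). Chd9 lay at the upper end of the family, at 72.9 and 66.0 CPM against 100.3 and 90.2 CPM (0.45, SE 0.19, edgeR adjusted p = 0.158). Chd4 had 134 and 178 CPM against 111 and 120.4 CPM (−0.43, SE 0.19, edgeR adjusted p = 0.173).

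None of 14 tested Smarc RNAs passed. The family holds, among others, motor and core subunits of the BAF and ISWI remodellers, and it includes the pseudogenes Smarca5-ps and Smarce1-ps1. At an unadjusted p under 0.05 Smarcc1 was higher and Smarca1 lower in the edgeR fit. Smarcc1, a core scaffold of BAF, had 233 and 209 CPM in the controls against 276 and 326 CPM in the differentiation libraries. Both differentiation libraries lay above both controls, with a log2 change of 0.45 (SE 0.16) that did not pass (edgeR adjusted p = 0.101). It passed without differentiation replicate 1 (0.00547). Smarcb1, another core subunit, had 102 and 119 CPM against 143 and 111 CPM, groups that overlap (0.19, SE 0.19, edgeR adjusted p = 0.572). Smarca4, a motor of BAF, had 119 and 117 CPM against 112 and 101 CPM (−0.14, SE 0.18, edgeR adjusted p = 0.657), and the alternative motor Smarca2 had 58.4 and 79.1 CPM against 50.6 and 62.1 CPM (−0.28, SE 0.23, edgeR adjusted p = 0.477). Changes of the family ranged from −0.71 for Smarca1 to 0.94 for Smarce1-ps1, which had 31 counts in all.

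Among the Arid RNAs, 2 of 9 passed. Arid5b, a DNA-binding partner of a histone demethylase, lies at 10:68092523-68279355. It had 336 and 359 CPM in the controls against 169 and 169.5 CPM in the differentiation libraries, and fell by 1.04 on the log2 scale (SE 0.15, edgeR adjusted p = 0.00142), which is 2.06-fold. Arid1b lies at 17:4994297-5347656 and had 991 and 1175 CPM against 612 and 557 CPM, a fall of 0.89 on the log2 scale (SE 0.16, edgeR adjusted p = 0.00365), which is 1.85-fold. In neither of the 2 RNAs did the groups overlap. Arid5b lost its call without control 2 (0.0811), and Arid1b without control 1 (0.0520) or control 2 (0.158). Arid1a, the paralogue that replaces Arid1b in the same complex and was picked for mention after its values were seen, had 134 and 127 CPM against 99.5 and 103 CPM (−0.36, SE 0.18, edgeR adjusted p = 0.209). Arid2, the subunit of the alternative PBAF complex, had 143 and 128 CPM against 124 and 171 CPM, groups that overlap (0.13, SE 0.19, edgeR adjusted p = 0.733).

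**Figure D3:**
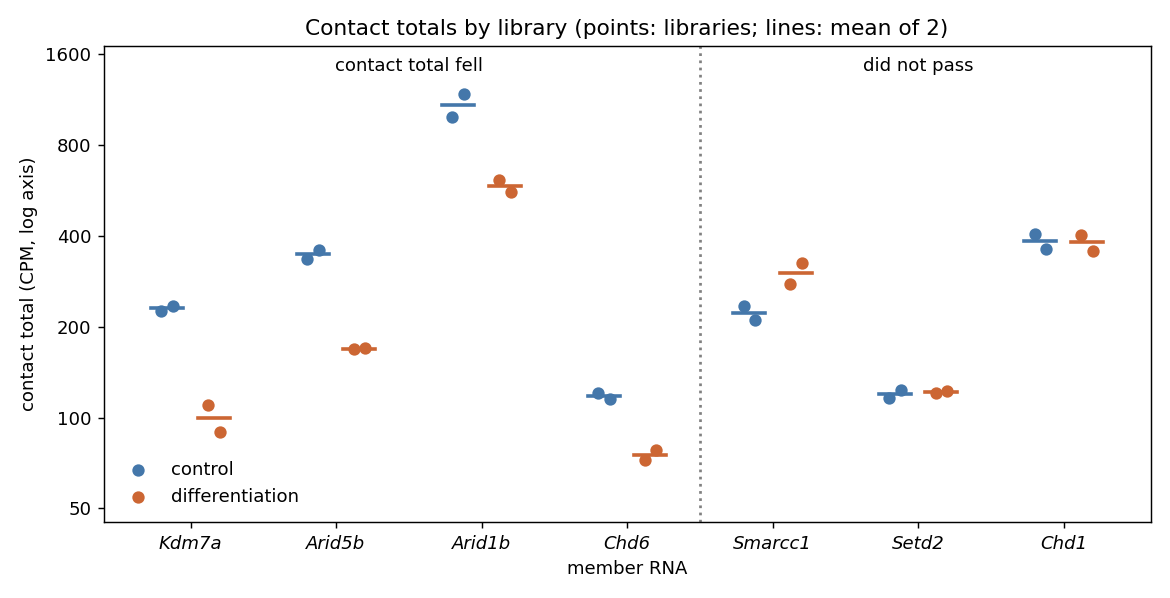
Contact totals of 7 member RNAs are shown on a log axis in CPM, with 1 point per library and a line at the mean of each group of 2. In Kdm7a, Arid5b, Arid1b and Chd6 both differentiation points lie below both control points; Smarcc1, Setd2 and Chd1 did not pass the test.

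The number of member totals called lower rested on single libraries. It was 2 without control 1, 0 without control 2, 8 without differentiation 1 and 9 without differentiation 2. Without Neat1 and Malat1 pairs 3 member totals fell (Kdm7a by 1.22, Arid5b by 0.90 and Arid1b by 0.86 on the log2 scale), and 0 rose, against 5.89% of all RNAs called lower and 5.13% called higher in that fit.

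Of the RNAs that fell, Kdm7a, Arid1b, Arid5b and Chd6 differed in the partners that made up their loss. They also differed in their partners in the controls. Arid1b lost 498 CPM, of which 66.8% was contact of Arid1b with itself, 3.42% contact with Neat1 and 5.40% contact with Malat1. Contact with itself already made up 70.8% and 71.3% of its counts in control 1 and control 2. Over both controls 1.85% of its counts were with Neat1 and 3.16% with Malat1. Arid5b has no listed within-RNA pair but 52 partner RNAs, the most of any member, and lost 178.5 CPM. Of that loss 12.6% was contact with Neat1, 14.0% with Malat1, 19.2% with Gm42418 and 41.5% with partners other than these and Gm26917. In the controls Neat1, Malat1 and Gm42418 held 6.88%, 11.1% and 16.9% of Arid5b counts. Chd6 lost 42.2 CPM, with 30.7% in the contact with itself, 16.3% in the contact with Malat1 and 38.9% in other partners. Contact with itself was 31.7% and 36.0% of Chd6 counts in control 1 and control 2, and Malat1 held 7.57% over both. Gm42418 and Gm26917 are RNAs that the table joins to most other RNAs: they had 8422 and 7584 partners.

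**Figure D4:**
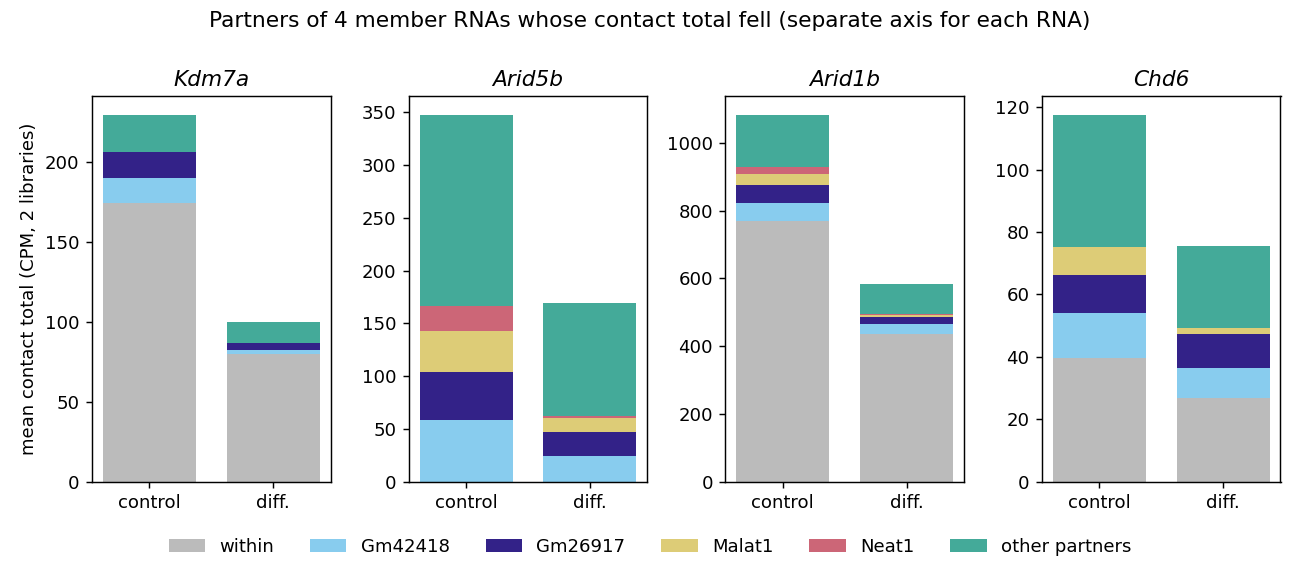
Stacked bars give the mean contact total in CPM of 4 member RNAs that fell, in 2 control and 2 differentiation libraries, divided by partner, with an axis of its own for each RNA. Most of the loss of Kdm7a and Arid1b is in the grey within-RNA part (72.9% and 66.8%), which also held most of their control totals. Arid5b has no such part.

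Single pairs were then tested over all 31688 pairs with enough counts. CPM of single pairs are scaled over the pairs and cannot be set against the CPM of totals given above. Of 41 tested within-RNA pairs of members, 1 was higher and 0 were lower, against 12.3% and 3.33% of all within-RNA pairs. At an unadjusted p under 0.05, 9 were higher and 3 lower in the edgeR fit. The share of all within-RNA pairs at that unadjusted threshold is not given here. The pair that rose was Smarcc1 with itself, at 270.5 and 222 CPM in the controls against 409 and 488 CPM in the differentiation libraries. Both differentiation libraries lay above both controls (0.87 on the log2 scale, SE 0.21, edgeR adjusted p = 0.0223). The call was lost without control 1 (0.0814), without control 2 (0.325), with scaling by library totals (0.0550) and with no count filter (0.0939). Kdm1b, a demethylase used in the germ line, had 36.2 and 35.2 CPM in its within-RNA pair against 82.4 and 70.9 CPM, and just missed the threshold (1.10, SE 0.31, edgeR adjusted p = 0.0512). Kdm6a, an X-linked demethylase, had 57.3 and 67.4 CPM against 112 and 125 CPM (0.92, SE 0.27, edgeR adjusted p = 0.0571). Both members were named after their values were seen. The median log2 change of the members' within-RNA pairs was 0.22, and that of all within-RNA pairs 0.44, on a scale set over all pairs.

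Of 367 tested between-RNA pairs of members, 8 were lower and 0 higher, against 2.25% and 1.3% of all between-RNA pairs. The share called lower was near the background. At an unadjusted p under 0.05, 45 were lower and 13 higher in the edgeR fit, and DESeq2 called 5 lower. The matching shares of all between-RNA pairs are not given here. Among the pairs that fell were those of Arid5b, Arid1b, Chd4, Chd6 and Kdm4b described next, and 6 of the 8 had Neat1, Malat1 or Gm26917 as the partner.

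Neat1, the scaffold RNA of paraspeckles, was the most frequent partner among the pairs that fell. Arid5b with Neat1 had 43 and 46 counts in the controls against 1 and 4 in the differentiation libraries, a depth-scaled ratio of control over differentiation of 12.1 (95% exact interval 4.98 to 38.0, edgeR adjusted p = 0.00172). Arid1b with Neat1 had 34 and 41 counts against 5 and 4, a ratio of 5.64 (2.82 to 12.8, edgeR adjusted p = 0.0130). Neat1 with Chd4, the motor of the NuRD deacetylase complex, had 24 and 22 counts against 1 and 4, a ratio of 6.23 (2.48 to 20.1, edgeR adjusted p = 0.0302). In none of these 3 pairs did the groups overlap, and the intervals cover counting error only. Arid5b with Neat1 kept its call in every alternative run for it, while Arid1b with Neat1 lost its call without differentiation 2 (0.0696) and Neat1 with Chd4 lost it without control 1 (0.0940), control 2 (0.0505) or differentiation 1 (0.0627).

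Neat1 pairs fell among other RNAs too. Neat1 was joined to 16 members, of which 11 pairs could be tested: all 11 had a log2 change below 0, 4 fell, and their median was −1.85. Over all RNAs 801 Neat1 pairs were tested, 33.5% fell and the median was −1.99, and the contact total of Neat1 itself fell by 2.34 on the log2 scale (SE 0.18, edgeR adjusted p = 3.07e-05). Neat1 held 1.56% and 1.75% of the member counts in the controls against 0.376% and 0.412% in the differentiation libraries. The groups were far apart, with an exact permutation p of 0.333, the smallest this design allows. Kmt2d with Neat1 had 18 and 34 counts against 2 and 10 and did not pass (−1.56, SE 0.59, edgeR adjusted p = 0.140). Kdm2a with Neat1 had 16 and 32 counts against 1 and 8 and did not pass either (−1.85, SE 0.65, edgeR adjusted p = 0.111).

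Malat1, an abundant nuclear speckle RNA, was joined to 24 members, with 17 pairs tested, 15 of them below 0, a median of −1.18 and 1 called lower. Over all RNAs 6.05% of 1487 Malat1 pairs fell, with a median of −0.87. The pair that fell was Arid1b with Malat1, at 46 and 82 counts in the controls against 12 and 8 in the differentiation libraries (−2.04, SE 0.46, edgeR adjusted p = 0.0148). It lost its call without control 2 (0.142) or differentiation 2 (0.0639). Arid5b with Malat1 had 63 and 80 counts against 19 and 21 and missed the threshold (−1.25, SE 0.37, edgeR adjusted p = 0.0575). Malat1 held 2.24% and 2.74% of member counts in the controls against 1.36% and 1.01% in the differentiation libraries.

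Few member pairs with Gm42418 and Gm26917 passed the test. Gm42418 was joined to 76 members, 93.8% of them against 63.2% of all RNAs. Slc9a9 (90.1% against 58.8%) and Gm26917 (86.4% against 56.9%) differed likewise. The median member had 308 counts against 83 for the median RNA, and the part of this difference in those shares was not tested. Of 69 tested Gm42418 pairs of members 0 were called, against 1.04% lower and 0.974% higher over all RNAs. The median log2 change of these member pairs was 0.07. Gm26917 was joined to 70 members, and of 65 tested pairs 1 was lower and 0 higher, against 1.9% and 0.34% of all its pairs. That pair was Gm26917 with Kdm4b, at 36 and 63 counts in the controls against 9 and 13 in the differentiation libraries (−1.58, SE 0.44, edgeR adjusted p = 0.0462). It lost its call without control 1 (0.0538), control 2 (0.370) or differentiation 2 (0.104), with DESeq2 (0.0849) and with Neat1 and Malat1 pairs left out of the fit (0.0542). The between-RNA pairs of members with most counts were Kmt2d with Gm42418 (124 and 166 counts against 56 and 119), Kmt2d with Gm26917 (110 and 131 against 46 and 82) and Kmt2d with Slc9a9 (92 and 88 against 42 and 82), none of which passed, with log2 changes of −0.20, −0.37 and −0.01. Arid5b with Gm42418 had 98 and 121 counts against 33 and 41, below both controls, and missed the threshold (−0.98, SE 0.30, edgeR adjusted p = 0.0691). It passed without differentiation 1 (0.0361). Gm42418 with Arid1b had 84 and 112 counts against 36 and 47 (−0.66, SE 0.30, edgeR adjusted p = 0.228).

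**Figure D5:**
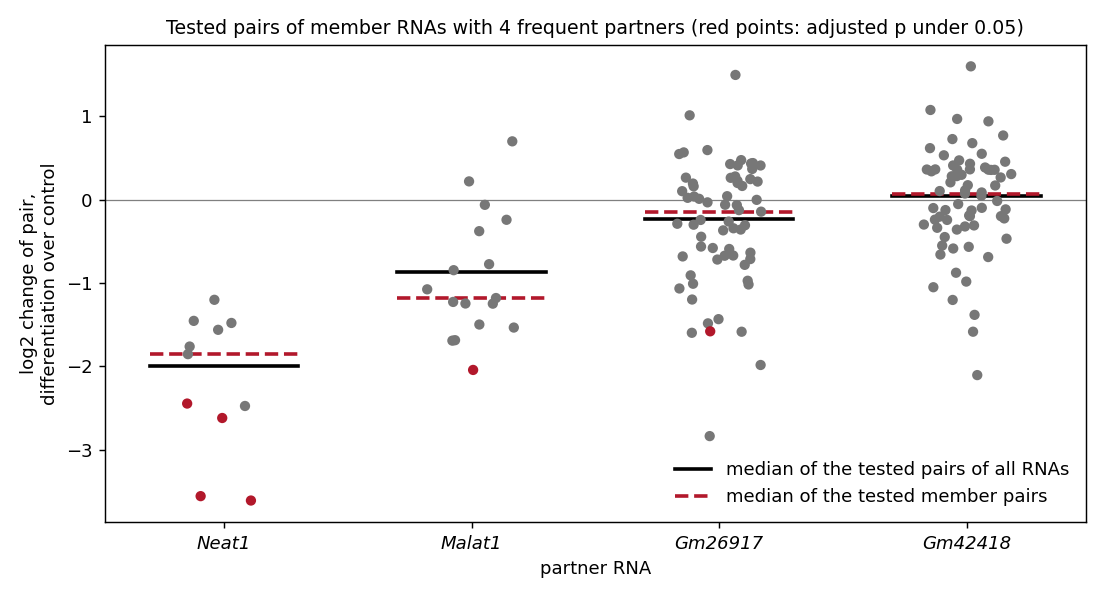
Each point is the fitted log2 change, differentiation over control, of 1 tested pair of a member RNA with Neat1, Malat1, Gm26917 or Gm42418, and lines give the medians of the member pairs and of the pairs of all RNAs with the same partner. All 11 Neat1 points and 15 of 17 Malat1 points lie below 0, the Gm42418 points lie on both sides of 0, and the member medians lie near those of all RNAs.

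The other 2 of the 8 pairs that fell joined neighbouring genes. Chd6 and Zhx3, a homeobox gene named in the study's title, lie 74.0 kb apart on chromosome 2. Their pair had 16 and 18 counts in the controls against 1 and 1 in the differentiation libraries, a ratio of 11.5 (95% exact interval 2.95 to 98.9, edgeR adjusted p = 0.0216). A listed pair cannot have fewer than 2 counts in a group, so this pair sat at the lowest value the table allows. Its call was lost without differentiation 2 (0.0955). Gm16751, the non-coding RNA of the title, was also joined to Chd6, at 7 and 4 counts against 1 and 1, too few to test (ratio 3.72, 0.813 to 34.6). Arid1b and Zdhhc14, a palmitoyltransferase gene, lie 145 kb apart on chromosome 17, and their pair had 40 and 50 counts in the controls against 3 and 12 (−2.04, SE 0.50, edgeR adjusted p = 0.0230). It lost its call without control 2 (0.0858) or differentiation 1 (0.0563). In all, 10 tested member pairs joined genes within 200 kb of each other, of which 2 were lower and 0 higher, against 2.66% and 4.44% of 676 such pairs over all RNAs. Reads over overlapping genes, such as the 206 counts of Chd2 with 1810026B05Rik, cannot be assigned with certainty and are left as values.

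Of the 713 between-RNA pairs, 5 joined a member to another member. Smarca5-ps with Smarca5, the ISWI motor, had 3 and 5 counts in the controls against 7 and 12 in the differentiation libraries and did not pass (1.77, SE 0.67, edgeR adjusted p = 0.136). Smarce1 with Smarce1-ps1 had 2 and 3 counts against 5 and 7 (1.77, SE 0.75, edgeR adjusted p = 0.188). A pseudogene and its parent gene can share reads, so both pairs are uncertain. Chd1 with Arid1b had 6 and 2 counts against 1 and 1, Setd5 with Chd4 had 2 and 3 against 2 and 1, and Kmt2d with Chd4 had 3 and 2 against 2 and 5, all too few to test. Of the placed between-RNA pairs of members 17.7% joined genes of the same chromosome, against 12.6% of all such pairs, and 20.4% against 15.8% with the 4 frequent partners left out.

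A test asked whether the within-RNA and between-RNA contacts of a member changed by different amounts. It took the difference of the 2 log2 changes for each RNA that has both. Within and between counts were scaled together, which takes out a shift of within against between that most RNAs share. The test therefore compares a member with the typical RNA and cannot show whether such a common shift took place. Of 42 members 0 were called in either direction, against 0.0526% of 3803 RNAs, and the smallest adjusted p among members was 0.384 in the edgeR interaction test. At an unadjusted p under 0.05 in the edgeR interaction test there were 3 of 42 members, against 448 of 3803 RNAs. They were Kdm5c with a within-minus-between difference of 0.69, Kdm2b with −1.68 and Arid5a with −1.58 on the log2 scale. The median difference was −0.08 for the members and −0.04 for all RNAs. Within-RNA contacts made up 52.7% and 51.5% of member counts in the controls against 56.2% and 58.2% in the differentiation libraries, without overlap (exact permutation p = 0.333). Over all pairs the same share was 48.9% and 49.4% against 47.7% and 52.9%, groups that overlap.

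Chromatin genes outside the 8 name families were called in both directions. Of a list of 188 such genes, 170 were in the table and 155 were tested: 7 rose and 13 fell, where 5.44% and 6.75% of all RNAs did (12.2% together), with a median log2 change of −0.08. Among 22 tested acetyltransferase genes 3 fell and 1 rose. Kat6b, the catalytic subunit of a histone acetyltransferase complex, had 366 and 391 CPM against 188 and 205 CPM (−0.94, SE 0.15, edgeR adjusted p = 0.00255), Ncoa1 changed by −0.82 and Kat2b by −0.70, while Hat1, which acetylates new histones, rose by 1.00. Among 24 deacetylase complex and sirtuin genes 2 fell and 0 rose. One was Tbl1x, a corepressor subunit, at 277 and 296 CPM against 129 and 103 CPM (−1.31, SE 0.18, edgeR adjusted p = 7.60e-04). Among 19 other demethylase and acetyl-lysine reader genes 3 fell and 0 rose: Mllt3, a reader of acylated lysine, at 98.4 and 86.6 CPM against 32.6 and 31.3 CPM (−1.53, SE 0.22, edgeR adjusted p = 0.00105), Jmjd1c (−0.73) and Phf8 (−0.65). Mllt3 was called lower in all 14 alternatives. Kat6b kept its call in 12 of 14, losing it without either control, and Tbl1x in 13, losing it without control 2. Hat1 and Kat2b kept theirs in 10, Ncoa1 in 9, Phf8 in 8 and Jmjd1c in 6, and these 5 lost it without either control too. Over between-RNA pairs alone the change of Hat1 was 0.20.

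Among 27 other remodeller subunits 2 fell (Dpf3 by 2.02 and Baz2b by 0.83 on the log2 scale) and 2 rose (Bcl7b, 1.00, and Baz1a, 0.71). With Gm42418 and Gm26917 pairs left out, Dpf3 changed by −0.81 and did not pass (edgeR adjusted p = 0.319). Bcl7b lost its call there (0.0738) and with DESeq2 (0.0885), and Baz1a kept its call in 8 of 14 alternatives. Of 30 Polycomb genes, which write and bind repressive marks, Jarid2 fell (−0.82) and L3mbtl2 (1.32) and Pcgf5 (0.70) rose. Of 13 heterochromatin genes Ehmt1 fell (−0.72) and Uhrf1, which keeps DNA methylation through replication, rose (1.09). Of 20 methyltransferase subunit genes Smyd3 fell (−0.57) and Carm1 rose (0.62), calls kept in 5 and 7 of 14 alternatives. Of the other genes in this paragraph, Baz2b, Jarid2 and Uhrf1 kept their calls in 12 alternatives, L3mbtl2 and Pcgf5 in 11 and Ehmt1 in 9, and every gene named in it lost its call without control 1 and without control 2. Over between-RNA pairs alone Pcgf5 changed by 0.21 and L3mbtl2 by 0.72, and neither passed. The counts in the list depended on single libraries: without control 1 the list had 0 higher and 2 lower, without control 2 it had 0 higher and 1 lower, and without differentiation 1 it had 15 higher and 22 lower.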

How the data were processed

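RIC-seq contacts of mouse spermatogonial stem cells were read from 2 libraries labelled control and 2 labelled differentiation. The deposited table holds whole-number counts of chimeric reads for each pair of RNAs and library, without normalization. Per the submitters' processing notes, STAR and the build GRCm38 are listed, with neither role nor version. How chimeric reads were called, duplicates treated and overlapping genes resolved is not given in the sources used here. Libraries were grouped by title. Counts were summed for each RNA over its listed pairs, a within-RNA pair once.

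Totals (10993 RNAs) and pairs (31688) were fitted over the whole table with edgeR 4.0.16 (R 4.3.3): TMM scaling, a count filter (minimum 5, total 10), the quasi-likelihood F test, two-sided, and Benjamini-Hochberg adjustment at 0.05. The biological coefficient of variation was 18.7% for totals and 24.9% for pairs. CPM is on the TMM scale of each fit, so values of totals and of pairs are not on 1 scale. A standard error is the log2 change divided by the square root of F. The within against between test used 8 columns, scaled together by TMM, with library as a term. Ratios of counts carry 95% exact intervals. The fits of totals, of pairs and of within against between were tested on simulated data. Gene positions come from a RefSeq table of assembly GRCm38.p6, which held all 81 member symbols.

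The genes named are all called members and pairs, the 2 members of each family with most counts, the 5 most counted between-RNA pairs, pairs of 2 members, and up to 4 called genes of each other list; any other named gene or pair was chosen after its values were seen. Some results are not reported here. The members and lists were chosen with earlier results of these data known. Alternatives were other scalings (RLE, library totals), filters, DESeq2 1.42.0, leaving out a library (on the same RNAs or pairs), the replicate number as a block, leaving out frequent partners, between-RNA pairs alone, and pairs with identical counts kept once. The table lists pairs counted in all 4 libraries, and others were not analysed here. No sequence is shown, since the counts carry no position within an RNA.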

Additional observations from a re-analysis of the deposited data

How the results depend on the processing

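No called result changed direction under the 14 alternatives run, and the within against between test called 0 members in either direction in each of its 12. The number of member totals called lower, 5, was 3 with scaling by library totals, 3 without Neat1 and Malat1 pairs and 9 with the replicate block, and 0 to 9 when 1 library was left out; the number called higher was 0 to 2 with 1 library left out. Member within-RNA pairs called higher, 1, were 3 with RLE scaling, 0 with library totals, 0 with no filter, 3 with the stricter filter and 3 with the replicate block, and 0 to 5 with 1 library left out. Those called lower, 0, were 2 with library totals and 1 with RLE scaling, no filter, the stricter filter, the replicate block, DESeq2, without Gm42418 and Gm26917 pairs and with identical pairs kept once, and 0 to 2 with 1 library left out. Member between-RNA pairs called lower, 8, were 13 with library totals, 5 with DESeq2 and 2 without Neat1 and Malat1 pairs, and 4 to 13 with 1 library left out; those called higher, 0, were 1 with the stricter filter and 2 with the replicate block, and 0 to 2 with 1 library left out. Other chromatin genes called higher, 7, were 4 without Gm42418 and Gm26917 pairs and 3 with between-RNA pairs only, and 0 to 15 with 1 library left out; those called lower, 13, were 6 with library totals and 8 without Gm42418 and Gm26917 pairs, and 1 to 22 with 1 library left out. The cause was not tested. Leaving out a library leaves 1 in that group, whose spread is then taken from the opposite group. The replicate numbers gave only 2 pairs, and their deviations correlated at 0.139 over all RNAs, so the replicate block is an alternative only; it called 9 member totals lower, and changed the call of 2 of the named results, Hdac4 and Chd2, which then passed (adjusted p = 0.0472 and 0.0296). Counts of 1 to 5 in a library limit the Neat1 pairs and the Zhx3 pair.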
